A study of Mus musculus with 6 samples.

Results

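The 10 genes described here are used by the adrenal cortex to make steroid hormones, and they were followed in microdissected adrenal medulla, as a measure of how much cortex signal each sample held. The genes are Star, Cyp11a1, Cyp11b1, Cyp11b2, Cyp21a1, Hsd3b1, Mc2r, Nr5a1, Fdx1 and Scarb1. They were taken as a list, and every probe set whose only gene symbol in the platform annotation is one of these 10 was kept. This gave 18 of the 45037 probe sets (groups of short probes that read a transcript) that are not array controls. Medulla was dissected from 12 µm cryosections of the adrenals of male C57/Bl6 mice, 8 weeks after an operation. In 3 mice the operation was transverse aortic constriction (TAC), which narrows the aorta and loads the heart with pressure, and in 3 it was a sham procedure. Each animal gave 1 Affymetrix Mouse Genome array, hybridised with RNA from both of its medullae after 2 rounds of amplification from the 3′ end. The labels give no age and no allele or drug. The numbers 1 to 3 come from the sample titles and serve here to name the animals within a group. The titles do not say whether arrays with the same number were processed together.

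The adrenal medulla is a core of chromaffin cells, which make adrenaline and noradrenaline, wrapped by a cortex of steroid-producing cells. In cortex cells the pituitary hormone ACTH acts through its receptor and raises cyclic AMP, which speeds the movement of cholesterol into mitochondria. There and in the endoplasmic reticulum a chain of cytochrome P450 enzymes and a dehydrogenase turn cholesterol into corticosterone, or, in the outermost zone, into aldosterone. Chromaffin cells sit against the innermost cortex and do not run this pathway, so its transcripts are commonly read as cortex tissue in a medulla sample.

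The promoters of only 3 of the 10 genes, Cyp11a1, Hsd3b1 and Fdx1, were in the RefSeq table used here (build GRCm38.p6), and 1 window for each of these is shown. Each is the 250 bases before a transcript start, on the gene's own strand, and capitals mark AGGTCA, the core letters bound by nuclear receptors of the NR5A1 type. The first lies at chr9:58014702-58014951 on the plus strand, before a start inside the annotated gene. The second lies at chr3:98859795-98860044 and the third at chr9:51963603-51963852, both on the minus strand.
Cyp11a1: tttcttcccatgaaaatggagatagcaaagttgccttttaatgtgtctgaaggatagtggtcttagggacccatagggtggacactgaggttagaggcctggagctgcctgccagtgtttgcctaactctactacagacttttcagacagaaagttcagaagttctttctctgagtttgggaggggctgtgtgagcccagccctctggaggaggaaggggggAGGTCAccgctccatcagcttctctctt
Hsd3b1: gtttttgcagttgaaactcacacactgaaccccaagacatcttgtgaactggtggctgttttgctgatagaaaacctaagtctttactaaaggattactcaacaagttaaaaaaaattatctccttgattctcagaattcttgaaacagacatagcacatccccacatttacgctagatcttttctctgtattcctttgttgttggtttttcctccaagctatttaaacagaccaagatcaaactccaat
Fdx1: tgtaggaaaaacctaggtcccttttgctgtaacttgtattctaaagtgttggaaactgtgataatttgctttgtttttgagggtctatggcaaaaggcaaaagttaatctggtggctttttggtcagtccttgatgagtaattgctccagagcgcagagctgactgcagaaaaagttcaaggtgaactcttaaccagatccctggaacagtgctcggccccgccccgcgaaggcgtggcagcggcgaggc
AGGTCA was searched on both strands, and it was found once, beginning 28 bases before this start of Cyp11a1. It was not in the windows of Hsd3b1, Fdx1 or the other annotated start of Cyp11a1. Of all 32851 windows of this length in the table, 14.0% held it, so the 1 match among 4 is a description of these letters only.

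Values are log2 of the deposited intensity, and probe sets that reached log2 4 on at least 3 of the 6 arrays were tested. Of the 18 cortex probe sets 11 passed, for 7 of the 10 genes, and Cyp11b2, Mc2r and Nr5a1 did not pass. The arrays differed as a whole. Array medians over the tested probe sets ran from 6.31 to 7.01, and the 3′ minus 5′ difference of the Gapdh control probe sets, which is larger where transcripts are shortened, lay between 2.88 in sham 3 and 5.15 in sham 1. All 11 measured genes of a list of 12 chromaffin genes were above the filter on every array, and their mean ran from 12.19 to 12.88. Passing the filter does not tell medulla from cortex, since cortex genes such as Star were above it on every array too. Of 6 endothelial markers 3 passed the filter, while Pecam1, Cdh5 and Kdr were under log2 4 on all 6 arrays by their brightest probe set. Th, the enzyme that limits the making of catecholamines, measured 12.31 to 13.74.

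By their brightest probe set, 6 of the 10 genes (Star, Cyp11b1, Cyp21a1, Hsd3b1, Fdx1 and Scarb1) were above log2 4 in every dissected medulla and Cyp11a1 in 5 of 6, and the levels of these 7 differed more between animals of a group than between group means. Star, whose protein carries cholesterol to the inner mitochondrial membrane, measured 8.88, 6.56 and 10.81 in sham 1, 2 and 3 and 9.23, 7.90 and 6.10 in TAC 1, 2 and 3 with probe set 1418728_at. Sham 3 was the highest and TAC 3 the lowest, 4.71 apart on the log2 scale or 26.2-fold, and the groups overlapped. The other Star probe sets, 1418729_at and 1449201_at, also placed sham 3 first, TAC 1 next and TAC 3 last. They spanned 5.63 and 5.78 with values under log2 4 set to 4, which both had in TAC 3. The 3 Star probe sets tracked each other with Pearson r from 0.92 to 0.93 over the 6 arrays.

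Cyp11a1 encodes the side-chain cleavage enzyme, the first step of all steroid synthesis, and it varied most. It measured 4.36, 4.55 and 11.10 in the sham and 7.38, 6.97 and 3.22 in the TAC arrays with probe set 1448804_at. Sham 3 stood 3.71 above the next array, and the TAC 3 value was under the filter. With that value set to log2 4, the span was 7.10, or at least 137-fold. Its standard deviation over the 6 arrays, 2.86 with the TAC 3 value as measured, was the largest of all 10181 tested genes. The other probe sets of Cyp11a1, 1439947_at and 1457604_x_at, stayed between 2.73 and 3.93 on all arrays and followed none of this.

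The enzymes that follow in the pathway were also high in sham 3 and TAC 1. Hsd3b1, the dehydrogenase that converts pregnenolone to progesterone, measured 9.25, 8.30 and 12.37 in sham and 10.20, 9.01 and 6.82 in TAC. Cyp21a1, the 21-hydroxylase, measured 6.93, 4.51 and 9.81 in sham and 10.13, 6.89 and 5.73 in TAC with probe set 1455691_at. Cyp11b1, which finishes corticosterone, measured 6.91, 5.606 and 9.999 in sham and 8.26, 6.78 and 5.38 in TAC. Sham 3 and TAC 1 were the highest arrays for all 3 genes, and sham 2 and TAC 3 the lowest. Hsd3b1 spanned 46.9-fold, Cyp21a1 49.4-fold and Cyp11b1 24.6-fold between its highest and lowest array. Hsd3b1 and Cyp11b1 have close relatives in the genome, and how far their probes also bind those transcripts was not tested.

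Fdx1 and Scarb1, which supply the pathway and are also used by many other cells, varied less. Fdx1 encodes adrenodoxin, which passes electrons to the mitochondrial P450 enzymes, and it measured 8.68, 9.19 and 10.72 in sham and 10.12, 10.99 and 9.62 in TAC. TAC 2 was its highest array and sham 1 its lowest, so its order was not that of the enzymes, and its span was 4.96-fold. Scarb1 encodes the receptor that takes up cholesterol from high-density lipoprotein. It measured 10.09, 8.95 and 11.76 in sham and 12.22, 10.64 and 10.55 in TAC with probe set 1437378_x_at, and TAC 1 was the highest. Probe set 1455820_x_at gave the same highest and lowest arrays, and 1416050_a_at instead put sham 3 (8.12) above TAC 1 (6.83). The suffix x marks probes that may bind other transcripts.

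**Figure D1:**
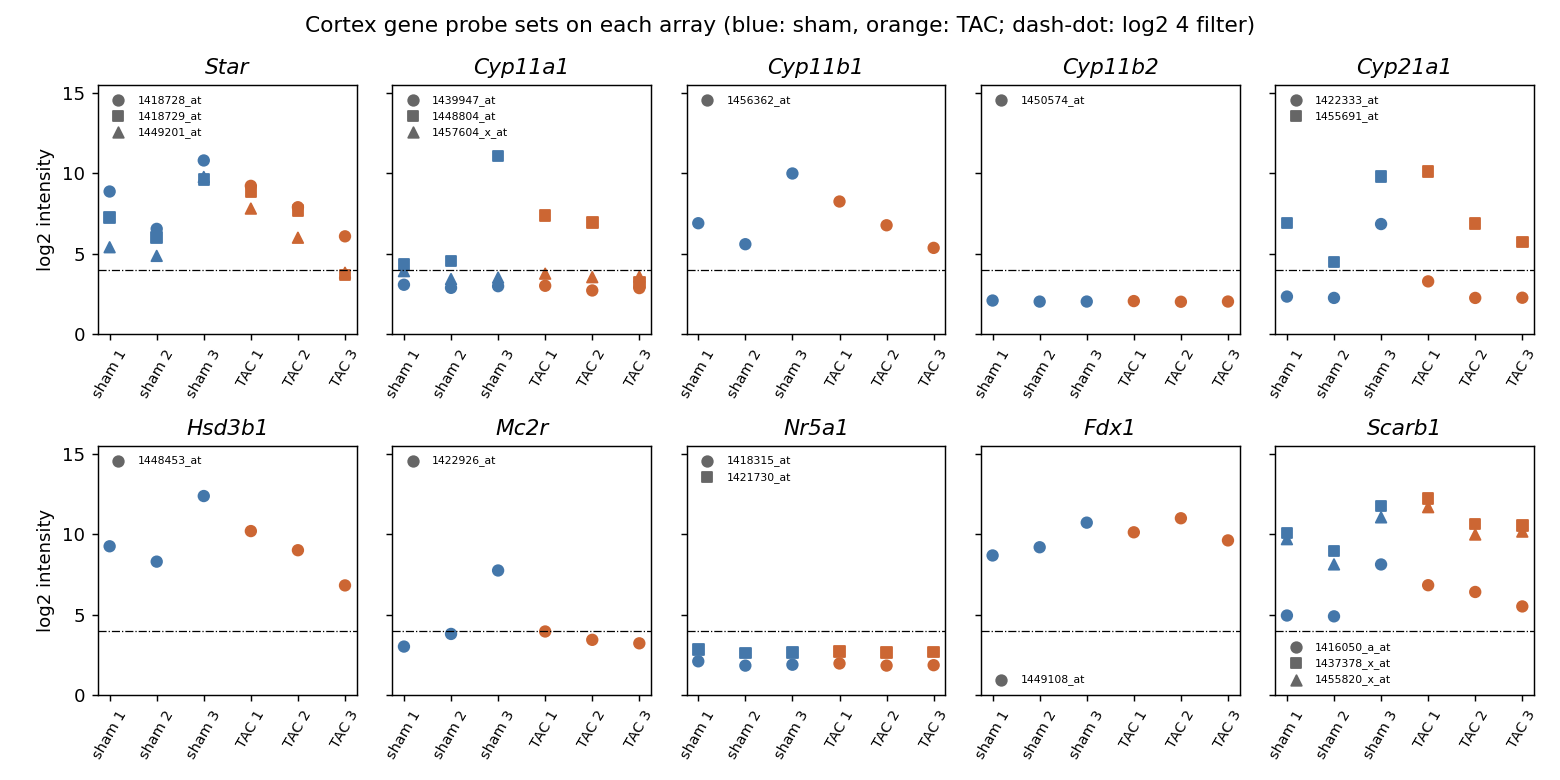
Log2 intensity of all 18 cortex probe sets on the 6 arrays, 1 panel per gene, with sham arrays in blue and TAC arrays in orange, marker shapes for the probe sets of a gene, and the log2 4 filter as a dash-dot line. Sham 3 is the highest array for 7 of the 11 tested probe sets, TAC 1 for 3 and TAC 2 for 1, while Cyp11b2 and Nr5a1 lie under the filter on every array.

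The genes that failed the filter split into those seen only in sham 3 and those seen nowhere. Mc2r, the ACTH receptor, measured 7.75 in sham 3 and between 3.02 and 3.96 on the other 5 arrays. The low Cyp21a1 probe set, 1422333_at, measured 6.86 in sham 3 and between 2.27 and 3.30 on the others. Cyp11b2, the aldosterone synthase of the outermost zone, lay between 2.03 and 2.11 on all 6 arrays. Nr5a1, the transcription factor SF-1 that switches on steroidogenic genes, lay between 1.84 and 2.11 with one probe set and between 2.63 and 2.85 with the other. Nr5a1 was thus not read even in sham 3, where Hsd3b1 reached 12.37. Whether its probe sets respond to the transcript was not tested.

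Levels of the cortex genes did not separate TAC from sham. Over all probe sets, limma called 0 of 18188 at an adjusted p under 0.05 (0%), and 1263 (6.94%) had an unadjusted p under 0.05. Of the 11 tested cortex probe sets, 0 were called and 0 had an unadjusted p under 0.05. The latter count was 2 without sham 3, beside 773 of all 18188 probe sets. It was also 2 with array weights, beside 8749 of all 18188. The limma adjusted p-values of these 11 ran from 0.946 to 0.997, with 5 higher and 6 lower after TAC. The groups overlapped in all 11, so 0 were free of overlap, where 13.0% of all tested probe sets were. The median difference of the 11 was -0.70, beside 0.05 over all tested probe sets. Their standard errors, 0.62 to 2.09 with a median of 1.26, were larger than the median of 0.39 over all tested probe sets, so the group difference was less precise for them than for a typical probe set.

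By gene, Hsd3b1 differed by -1.30 ± 1.29 (SE of the limma fit, n = 3 arrays per group, limma adjusted p = 0.971), from 9.97 ± 2.13 (SD) in sham to 8.67 ± 1.71 in TAC. Star differed by -1.01 ± 1.25 (limma adjusted p = 0.980) and Cyp11a1 by -0.81 ± 2.09 (limma adjusted p = 0.990). Cyp11b1 differed by -0.70 ± 1.26, while Cyp21a1 lay on the other side of 0 at 0.50 ± 1.64. Fdx1 measured 9.53 ± 1.06 (SD) in sham and 10.24 ± 0.70 in TAC, a difference of 0.71 ± 0.62 (SE, limma adjusted p = 0.952). Scarb1 measured 10.27 ± 1.41 in sham and 11.14 ± 0.94 in TAC, a difference of 0.87 ± 0.82 (SE, limma adjusted p = 0.960). Each of these differences was smaller than the spread between animals of at least one group. Single arrays turned the direction. Without sham 3, Cyp11a1 differed by 1.400, Cyp11b1 by 0.55 and Star by 0.024, and Cyp21a1 differed by -0.77 without TAC 1 and by -0.78 without sham 2.

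**Figure D2:**
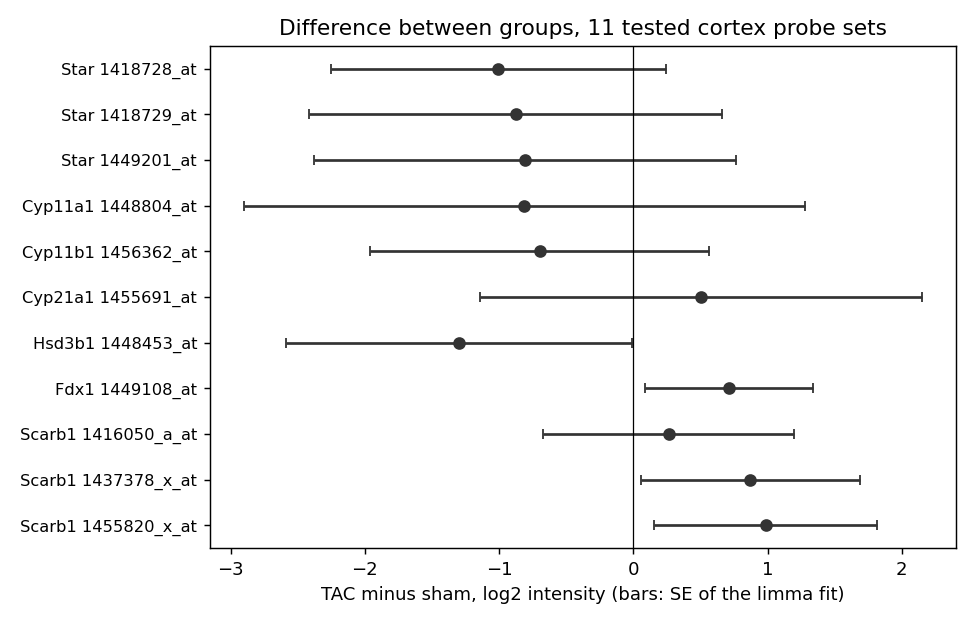
Differences of TAC minus sham in log2 intensity for the 11 tested cortex probe sets, with the standard error of the limma fit as bars. The points run from -1.30 for Hsd3b1 to 0.99 for a Scarb1 probe set, and none of them passed the test.

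A single cortex measure per array was formed as the mean over the 7 tested genes, each by its probe set of highest mean. It was 7.87, 6.81 and 10.94 in sham 1, 2 and 3 and 9.65, 8.45 and 6.77 in TAC 1, 2 and 3. The order was sham 3, TAC 1, TAC 2, sham 1, sham 2, TAC 3, and the highest and lowest arrays were 4.16 apart, or 17.9-fold in the geometric mean. The last place of TAC 3 rested on its Cyp11a1 value under log2 4. With such values set to 4 the span was 4.13, from sham 3 to sham 2, so the last 2 arrays have no firm order. Sham averaged 8.54 ± 2.14 (SD) and TAC 8.29 ± 1.44, a difference of -0.25 that is given without a test because the genes were chosen with earlier results known. Without sham 3 the difference was 0.95, without TAC 3 it was 0.51, and with each other array left out it stayed negative. With only the 5 genes Star, Cyp11a1, Cyp11b1, Cyp21a1 and Hsd3b1, a choice made after the values were seen, the measure spanned 5.37 and the arrays kept their order. Fewer cortex cells and less of these transcripts per cell cannot be told apart in such bulk RNA.

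Chromaffin genes, the markers of the dissected tissue itself, differed less between arrays as a list than the cortex genes. The mean of the 11 chromaffin genes was 12.20, 12.63 and 12.47 in sham and 12.19, 12.88 and 12.68 in TAC, a span of 0.70 against 4.16 for the cortex measure. The difference of cortex and chromaffin measures within an array, which a common scaling does not move, was highest in sham 3 (-1.53) and TAC 1 (-2.54). It was lowest in sham 2 (-5.82) and TAC 3 (-5.90), and it averaged -3.89 ± 2.18 (SD) in sham and -4.29 ± 1.69 in TAC. Some single chromaffin genes varied more than their mean and others less. Pnmt, which makes adrenaline, ran only from 14.05 to 14.52 and the granule protein gene Chga from 13.97 to 14.77. Ddc, the decarboxylase that makes dopamine, spanned 2.54, more than the 2.31 of Fdx1, and the transcription factor gene Phox2a spanned 1.95 and Th 1.43. Ddc was lowest in TAC 1 (11.13) and sham 1 (11.47), the arrays with the largest Gapdh difference.

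**Figure D3:**
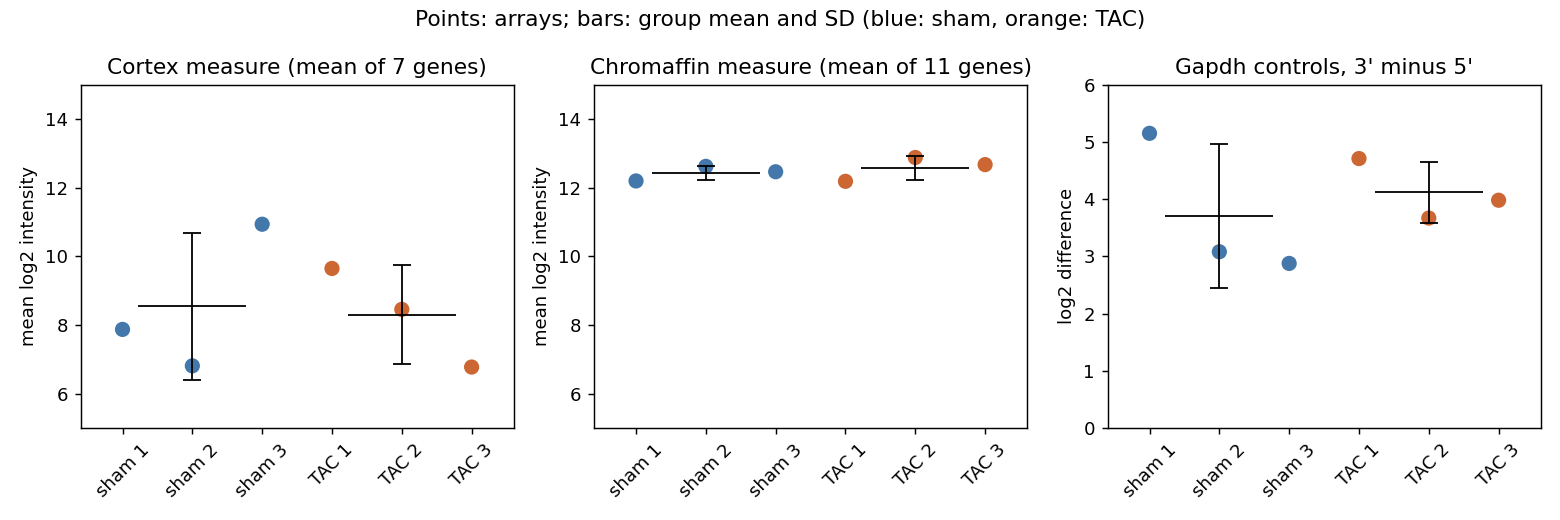
Cortex measure, chromaffin measure (both mean log2 intensity) and Gapdh 3′ minus 5′ control difference (log2) on each array, with sham in blue and TAC in orange; bars give the mean and SD of each group. The cortex measure runs from 6.77 to 10.94 and the chromaffin measure only from 12.19 to 12.88, and the arrays with the largest Gapdh difference, sham 1 and TAC 1, are not the pair with the most cortex signal.

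The 3′ minus 5′ difference of the control probe sets was not alike on the 2 arrays with the most cortex signal. Sham 3 had the smallest Gapdh difference (2.88) and TAC 1 the second largest (4.71). For the beta-actin controls the difference was 3.93 in sham 3, next to the smallest of 3.31 in sham 2, and 6.83 in TAC 1. These arrays also differed in which cortex genes were high. Sham 3 exceeded TAC 1 by 3.71 in Cyp11a1, 2.18 in Hsd3b1, 1.74 in Cyp11b1 and 1.58 in Star (1418728_at). In Mc2r, under the filter in TAC 1, the gap was at least 3.75 with that value set to log2 4. In Cyp21a1 (1455691_at) sham 3 lay below TAC 1, at -0.32, while the other probe set of that gene, under the filter in TAC 1, gave at least 2.86. The Scarb1 probe sets ending in x gave -0.46 and -0.63, and the third one gave 1.29. The part of transcript shortening, before or during amplification, in these gaps was not tested.

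The cortex genes varied together over the arrays. Among the 5 genes of the steroid pathway proper, Star, Cyp11a1, Cyp11b1, Cyp21a1 and Hsd3b1, Pearson r over the 6 arrays ran from 0.79 to 0.97 in the 10 pairs, with a median of 0.92. Cyp11b1 and Hsd3b1 were the most alike pair of these (0.97). Fdx1 was the least like the others, with r from 0.38 with Star to 0.73 with Cyp11a1. Scarb1 was closest to Cyp21a1 (0.94) and less close to Hsd3b1 (0.62). Over all 7 genes the median of the 21 pairs was 0.79, while it was 0.30 over the 55 pairs of chromaffin genes and -0.21 over the 77 pairs of a cortex and a chromaffin gene. The points share arrays, amplification and scaling, so r is a description of 6 animals. It rested in part on the extreme arrays. Without sham 3 the median of the 5 genes was 0.82, and without sham 3 and TAC 1, the arrays farthest from the median of the cortex measure, it was 0.73 over the remaining 4. For all 7 genes the median was 0.73 without sham 3 and 0.51 without both arrays, where the lowest pair was at -0.11 and 1 of the 21 pairs reached 0.9. The 5 genes were set apart after the values were seen.

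**Figure D4:**
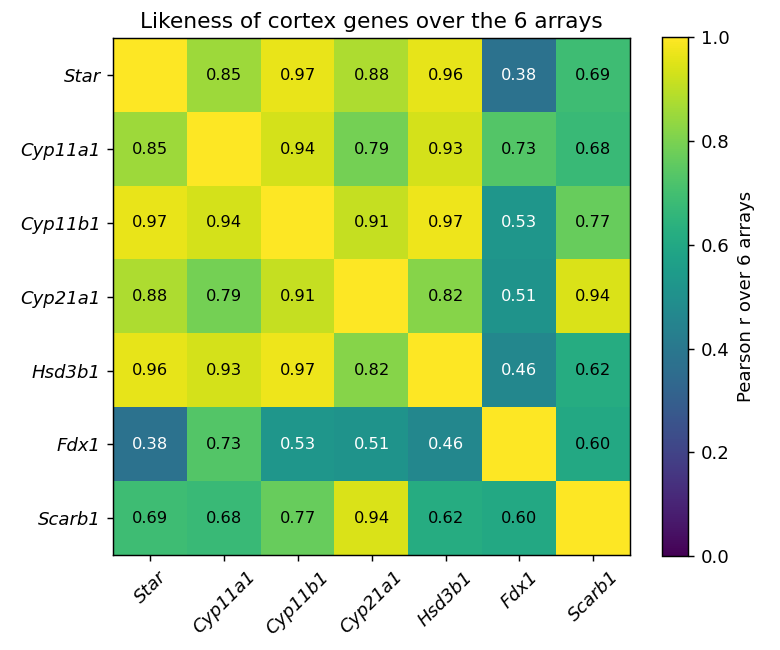
Pearson r over the 6 arrays for each pair of the 7 tested cortex genes, with the value in each cell and colour from 0 to 1. Star, Cyp11a1, Cyp11b1 and Hsd3b1 form a block of high values (0.85 to 0.97), and the Fdx1 row is the lowest.

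The spread of these genes was large beside the rest of the array. The median standard deviation over the 6 arrays was 1.76 for the 7 cortex genes and 0.49 for all 10181 tested genes. With values under log2 4 as measured, Cyp11a1 ranked 1, Cyp21a1 5, Hsd3b1 32, Star 50 and Cyp11b1 53 from the top. Scarb1 ranked 527 and Fdx1 1459. Sham 3 was the highest array for 4 of the 7 genes and for 14.2% of all tested genes.

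Most other tested genes on the lists tied to the cortex were unlike this pattern, while Mrap, Abcb1b and Dab2 were like it, and 0 were called. How far each listed gene is particular to cortex cells was not tested. Mrap is the accessory protein that carries the ACTH receptor to the cell surface. It measured 5.995, 5.594 and 7.513 in sham and 6.28, 5.65 and 5.78 in TAC, again highest in sham 3 and next in TAC 1, and its r with the cortex measure was 0.87. Abcb1b, a transporter gene active in the cortex, measured 12.22 in sham 3 and 8.36 in TAC 3 (r = 0.84). Dab2, an endocytic adaptor enriched in the outer zone, measured 7.39 in sham 3 and 7.38 in TAC 1 (r = 0.84). An r of this size was not particular to cortex lists. Gata3, of the chromaffin list, had an r of 0.83, with sham 3 highest and TAC 1 next, over a span of only 0.38. In the list of ACTH signalling and regulators, 1 of 8 tested genes was higher and 7 lower after TAC (median difference -0.19), beside 5972 higher of 10181 and a median of 0.09 over all tested genes. Besides Mrap, the r of these genes ran from -0.32 to 0.20. Nr0b1, the repressor DAX-1 of cortex cells, lay between 2.40 and 2.56 on all arrays.

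Genes that handle cholesterol in many cells did not follow the cortex genes. Of 6 tested members 3 were higher and 3 lower after TAC (median difference 0.05), and their r with the cortex measure ran from -0.22 for Npc2 to 0.18 for Npc1, both lysosomal cholesterol carriers. Tspo, an outer mitochondrial membrane protein, measured 9.83 in sham 1 and 10.41 in TAC 1, its lowest arrays, and 11.37 in sham 3. Of the enzyme list 2 genes were tested, the electron carrier Cyb5a (difference 0.19) and the glucocorticoid-activating enzyme Hsd11b1 (difference -0.93), and their r was 0.16 and 0.10.

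Markers that place a cortex cell in a zone differed in whether they were read. Of the middle zone's genes, Cyp11b1 and Abcb1b passed the filter and Mc2r did not, and the mean of the first pair, of which Cyp11b1 is also in the cortex measure, ran from 6.87 in TAC 3 to 11.11 in sham 3. The 3 genes of the X-zone, the inner layer next to the medulla that regresses in male mice (Akr1c18, Pik3c2g and Thrb), stayed between 1.77 and 2.48 on all arrays. In the outer zone Dab2, given above, passed, and Agtr1b and Wnt4 were at most 3.32 by their brightest probe set, while Shh measured 6.41 to 8.83 and was highest in TAC 1. Of the capsule genes Gli1, Rspo3 and Wt1 were under log2 4 everywhere, and Nr2f2, which other stromal cells also use, measured 5.99 to 7.31. The gonadal genes Cyp17a1, Hsd17b3 and Fshr were at most 2.71, and Cyp17a1, the 17-hydroxylase that adult mouse cortex lacks, lay between 1.98 and 2.13.

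The endothelial list, 3 tested genes, averaged 6.35 in sham 3, 6.25 in sham 2 and 4.63 in TAC 1. Emcn was under log2 4 in sham 1, TAC 1 and TAC 3, and Tek in TAC 1, so the low end of this list carries no order. Eng, the only gene of the 3 above log2 4 on every array, was highest in TAC 2 (8.02) and lowest in sham 1 (6.52). The fibroblast list, 7 genes, measured 7.05, 8.51 and 8.51 in sham and 6.12, 7.41 and 6.92 in TAC, so TAC 1, second in cortex signal, was its lowest array. The macrophage list, 5 tested genes, was highest in TAC 2 (8.29). Its low values in sham 1 (6.15) and TAC 1 (6.53) include C1qa and Cd14 under log2 4. The 3 sustentacular and Schwann genes ran only from 6.84 to 7.62. Of the adipocyte list, Adipoq and Lep were under log2 4 on all arrays, and Fabp4, which endothelial cells also use, was highest in sham 1 (12.05).

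The 10 other genes whose values were most like the cortex measure were Hao2, Greb1, Akr1cl, Plin5, Robo1, Prss35, Pde5a, Rmdn2, Mgarp and Ptprd, with r from 0.99 down to 0.92 over the 6 arrays. They were chosen by that r among genes with a standard deviation of at least 0.5, so it is a description. At r of 0.9 or more there were 24 of 10181 tested genes (0.236%), 5 of them among the 7 cortex genes, whose own values enter the measure. Hao2, a peroxisomal hydroxyacid oxidase, measured 8.17, 6.27 and 11.38 in sham and 9.95, 8.86 and 6.72 in TAC, and its r stayed at 0.98 without sham 3 and TAC 1. Akr1cl, an aldo-keto reductase, measured 4.31, 4.22 and 9.25 in sham and 6.90, 4.98 and 3.45 in TAC. Prss35, a serine protease-like gene, measured 8.65 in sham 3 and 6.07 in TAC 1 against 4.17 to 5.16 on the other 4. Mgarp, which encodes a mitochondrial protein, was also highest in sham 3 (8.65) and TAC 1 (7.09), but without these its r was 0.33. For the others r without both arrays ran from 0.60 for Ptprd to 0.94 for Greb1. Of these, Plin5 was under log2 4 in sham 1 and TAC 3, and Akr1cl in TAC 3. Their r therefore rests in part on values that carry no order. TAC and sham overlapped in all 10 genes, and 0 of them were called, where 13.0% of all tested probe sets were free of overlap and 0% were called. The genes were chosen for likeness to a measure whose groups overlap, so their overlap is not a separate result.

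**Figure D5:**
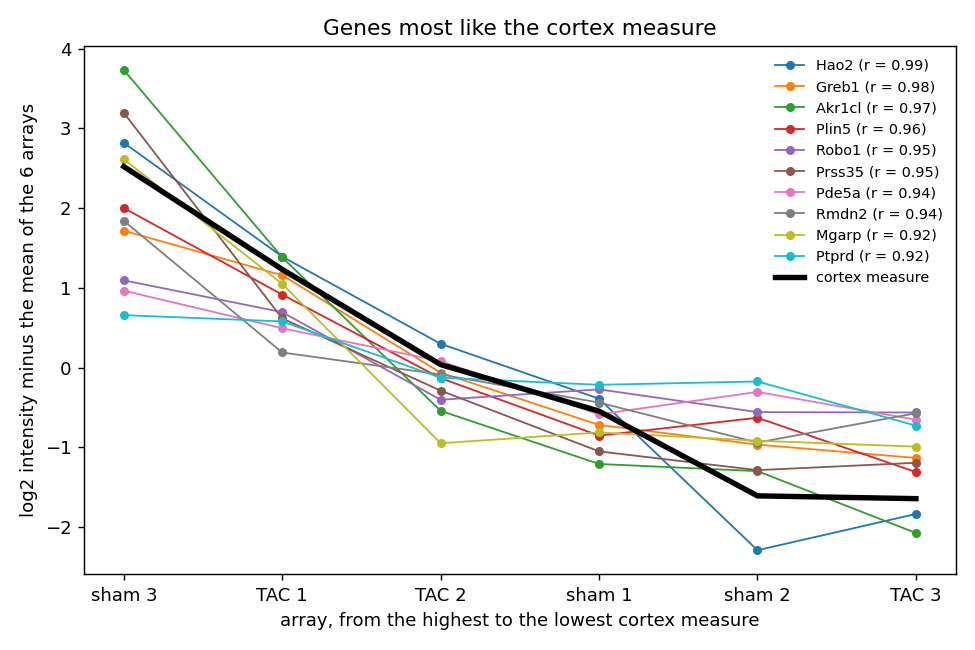
Log2 intensity minus the mean of the 6 arrays for the 10 genes most like the cortex measure (coloured lines) and for the measure itself (black), with arrays ordered from the highest to the lowest cortex measure. All 10 genes, chosen for likeness to the measure, peak in sham 3 as the measure does. Akr1cl reaches from 3.45 in TAC 3, under the log2 4 filter, to 9.25 in sham 3.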

How the data were processed

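Expression was measured on 6 Affymetrix arrays, 3 after TAC and 3 after sham surgery, each from 1 animal per the labels' protocols. The deposited table holds 1 background-corrected linear intensity per probe set and array from the authors; the submitters' processing notes name GCRMA without a version, and its options were not stated in the labels. The number of arrays limits the precision. No further scaling was applied before log2. Of 45101 probe sets, 64 array controls were left out. In GEO's platform annotation 34945 probe sets have 1 symbol, 932 have several (left unnamed) and 9160 have none.

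The 18188 probe sets that reached log2 4 on 3 or more arrays entered the 2-sided group comparison (limma 3.58.1 under R 4.3.3, functions lmFit and eBayes, without covariates), with Benjamini-Hochberg adjustment and a threshold of 0.05. The procedure was tested on simulated data. A gene with several tested probe sets was represented by the one of highest mean. The cortex members, lists and tests were chosen with earlier results of these data known. Named genes were every cortex probe set, genes of the fixed lists, and the 10 other named genes (clone names and predicted genes passed over, SD at least 0.5) with the highest r with the cortex measure. Alternatives covered array scaling, the filter, low values, probe set summaries, array weights, a block for the replicate number and leaving out each array.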

Additional observations from a re-analysis of the deposited data

How the results depend on the processing

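The call of 0 cortex probe sets held under every alternative run with a limma test: leaving out each array, 3 other scalings, no filter (18 probe sets), a filter at a mean of log2 6, values under log2 4 set to 4, probe sets averaged per gene, array weights and a replicate block. The lowest limma adjusted p of a cortex probe set was 0.057 with array weights (a Star probe set, at -3.68). In that run 6698 of all 18188 tested probe sets were called, so its 0 stands beside another background than in the main run. The cortex measure difference ran from -0.66 to -0.21 over the other alternatives and from -1.11 to 0.95 when an array was left out; the difference of cortex and chromaffin measures ran from -1.36 to 0.78 there. The span of the cortex measure ran from 2.87 to 4.16 when an array was left out. The median r among cortex genes was 0.59 with no filter on low values, where genes never read enter, and the median difference over the 7 cortex genes ran from -1.65 to 1.31 when an array was left out, the highest without sham 3.

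Leaving out arrays gave differences from -2.10 to 0.024, -1.93 to 0.66 and -1.77 to 0.74 for the Star probe sets, -1.97 to 1.400 for Cyp11a1, -1.65 to 0.55 for Cyp11b1, -0.78 to 1.87 for Cyp21a1 and -0.28 to 1.33 for Scarb1 (1416050_a_at). With array weights the sign turned for Cyp21a1 (-1.21), Fdx1 (-0.24) and Scarb1 (1416050_a_at, -0.90), and the weights ran from 0.143 for sham 1 to 6.11 for TAC 3.

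Over all tested probe sets, the count at an unadjusted p under 0.05 ran from 641 without sham 2 to 2429 without sham 1, and it was 773 without sham 3 and 695 without TAC 3. It was 2110 with no filter, 8749 with array weights (6698 at an adjusted p under 0.05), and 805 with the cortex measure as a covariate, beside 1263; the cause was not tested. With a replicate block it was 3005. Deviations from the group means correlated at 0.76 and 0.78 for arrays numbered 1 and 2 but at -0.22 for those numbered 3, so the numbers were not taken to pair the animals, and the block called 0 cortex probe sets. Values under log2 4 on these arrays carry no order.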
